A study of Mus musculus with 16 samples.

Results

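The genes described here encode the respiratory chain in mouse ovary: the subunits of the 4 electron transfer complexes, and the pair of ATP synthase subunits that the mitochondrial genome carries. Members were taken by name, as genes whose symbol starts with mt-Nd, mt-Co, mt-Cytb, mt-Atp, Uqcr, Cox4i, Cox5, Cox6, Cox7 or Cox8, with Ndufa, Ndufb, Ndufc, Ndufs or Ndufv and a number, or is Sdha, Sdhb, Sdhc or Sdhd. A mean level of at least 1 TPM (a count scaled for gene length and library size) over all libraries was also required. Of 55426 genes in the table, 87 had such a name and 81 were members, 13 in the mitochondrial genome and 68 in the nucleus. By complex, I had 7 mitochondrial and 40 nuclear members, II had 4 nuclear members, III had 1 mitochondrial and 9 nuclear members, IV had 3 mitochondrial and 15 nuclear members, and V had 2 mitochondrial members. The rule itself uses names and the mean level only.

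Whole ovaries gave the RNA, each from a different female of the inbred C57BL/6NHsd strain, and 4 groups held 4 mice apiece. On T mice had weekly injections under the skin of 0.9 mg testosterone enanthate, a slowly released testosterone ester, in sesame oil for 6 weeks, and were 16 weeks old when killed. Control for On T mice had sesame oil alone and were also 16 weeks old. Post T mice had the same 6 weeks of testosterone, were then left until cycling returned and for 4 more cycles, and were 24 to 28 weeks old. Control for Post T mice had sesame oil alone and were 24 to 28 weeks old. All 16 ovaries were collected in diestrus. An ovary is a mixture of follicles, corpora lutea, stroma, vessels and immune cells, so a change in the number of cells of a type and a change in RNA per cell cannot be told apart in any result below.

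The respiratory chain passes electrons from NADH (through complex I) and from succinate (through complex II) to complex III and then to complex IV, which gives them to oxygen, and complexes I, III and IV pump the protons that drive ATP synthase. It is built from products of separate genomes: the mitochondrial DNA encodes a few core subunits, read from long transcripts that are cut into single messages, while all other subunits are made from nuclear genes and imported. In ovary, mitochondria also hold the enzyme that turns cholesterol into pregnenolone, the first step of steroid synthesis, and cells of the corpus luteum are rich in them.

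The mitochondrial members lie head to tail on a circle, and the structure of their messages bears on what poly(A)-selected reads can tell apart. The last 24 bases of the coding sequence are shown for mt-Co1, which ends in a whole stop codon, and for the 3 members whose gene stops after the first base of one, so that the poly(A) tail has to supply the rest. Capitals mark the stop codon or the part of it that the gene holds (GENCODE M21, GRCm38).
mt-Co1 (chrM:5328-6872, plus strand): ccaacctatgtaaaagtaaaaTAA
mt-Co3 (chrM:8607-9390, plus strand): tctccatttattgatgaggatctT
mt-Nd4 (chrM:10167-11544, plus strand): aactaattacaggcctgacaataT
mt-Cytb (chrM:14145-15288, plus strand): acaaaatactaaaattatatccaT
Neighbouring genes also overlap. The ends of mt-Atp8 and mt-Nd4l run into the starts of mt-Atp6 and mt-Nd4, by 43 and 7 bases, and the capitals in the following lines mark the bases that belong to both genes of a pair.
mt-Atp8 and mt-Atp6 (chrM:7917-7979, plus strand): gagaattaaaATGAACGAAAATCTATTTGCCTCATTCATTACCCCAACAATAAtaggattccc
mt-Nd4l and mt-Nd4 (chrM:10157-10183, plus strand): acctactacaATGCTAAaaattattct
A read from such a stretch fits either gene. The gene mt-Nd6 is the only mitochondrial member on the minus strand and shares 14 bases with mt-Nd5. The kit used marks strand, but the sources used here do not say whether the counting did, so mt-Nd6 counts may hold reads from the opposite strand.

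At the level of single genes, each of the 13 mitochondrial members was higher than any of the 68 nuclear ones in mean TPM over 16 libraries. The highest was mt-Co1, the catalytic subunit of complex IV, at 8589 TPM. It was followed by mt-Atp8 at 5529, mt-Cytb, the cytochrome b of complex III, at 4313, mt-Atp6 at 4124 and mt-Nd1 at 3870 TPM. The others were mt-Co3 at 2595, mt-Nd4 at 2388, mt-Nd2 at 2339, mt-Nd6 at 1851, mt-Nd4l at 1807, mt-Co2 at 1406, mt-Nd3 at 1394 and mt-Nd5 at 1349 TPM. The levels of mt-Atp8 (a gene of 204 bases) and mt-Nd4l (297 bases) rest on few reads over a short length. Among nuclear members the highest were Cox4i1 at 1346, Cox6a1 and Cox6c at 930 each, Cox7c at 767, Uqcrh at 599 and Cox8a at 569 TPM, all of them small subunits of complex IV or III. The 40 nuclear members of complex I had a median of 186 TPM, and the 4 of complex II lay between 127 TPM for Sdhc and 198 TPM for Sdha. Just inside the threshold stood Cox4i2 at 13.97, Ndufa4l2 at 15.02 and Uqcrh-ps1 at 21.5 TPM. Just outside it stood Cox8b at 0.919 and Cox6a2 at 0.435 TPM, the muscle forms of their subunits, with Cox8c, Ndufa11b, Uqcrh-ps2 and Cox7b2 at 0.0219 TPM or less.

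All 81 members passed the filter on low counts, as did 18833 genes in all. Libraries held 26598055 to 52659637 expected counts, and markers of granulosa cells and of oocytes, which define ovary, were present in every library (summed TPM 2546 to 8340 and 137 to 338). Among the 16 libraries 2 stood apart in these genes. Control for Post T replicate 1 had the highest level of 59 of the 68 nuclear members, with a median of 0.50 log2 units above the mean of all libraries, while its mitochondrial members lay at -0.01. The ATP synthase subunits made from nuclear genes (0.53), the mitochondrial ribosome (0.33) and the cytosolic ribosome (0.34) were high in that library too. On T replicate 2 had the lowest level of 25 nuclear members (median -0.18) but a high level of the mitochondrial ones (0.20, against -0.21 to -0.39 in the other On T libraries). It also had the lowest sum of granulosa markers of all libraries (2546 TPM) and the highest of smooth muscle and pericyte markers (2434 TPM, against 724 to 1423 in the other 15). Control for Post T replicate 1 (26598055) and On T replicate 2 (29004008) also held the fewest expected counts of the 16 libraries. Whether these features are linked was not tested, and counts of calls that move with either library are given with and without it.

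**Figure D1:**
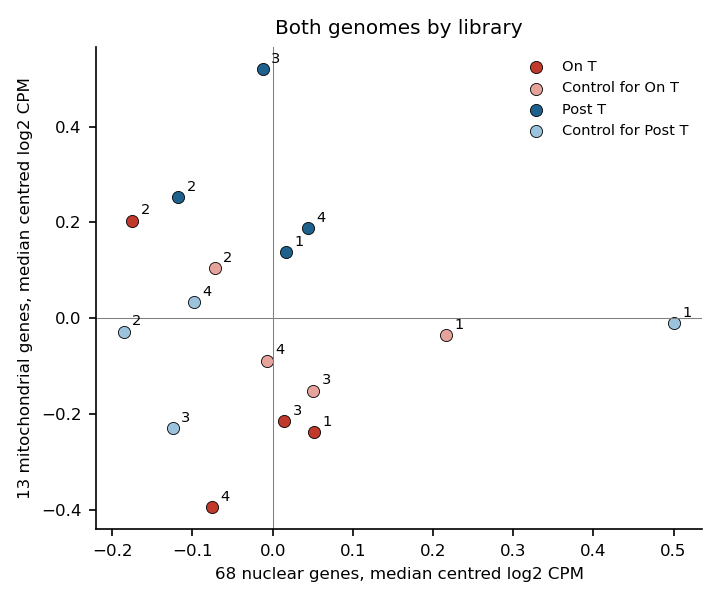
Median level of the 13 mitochondrial members (vertical axis) against that of the 68 nuclear members (horizontal axis) in each of the 16 libraries, as log2 CPM (counts scaled to library size) after the mean of each gene over all libraries was taken off; colours are groups and numbers are replicates. Control for Post T replicate 1 lies far to the right at 0.50, and Post T replicate 3 is the highest in mitochondrial members at 0.52.

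The members of a genome varied together across libraries. Over 16 libraries the median Pearson r of log2 CPM was 0.71 between pairs of mitochondrial members and 0.72 between pairs of nuclear members. Between a mitochondrial and a nuclear member it was -0.07. These are descriptions across libraries that share depth and scaling. Without Control for Post T replicate 1 the median between nuclear members was 0.52, and the typical spread within a group (SD of log2 CPM) of nuclear members was 0.12 where it had been 0.21. For mitochondrial members that spread was 0.22 with all libraries, and over all genes tested it was 0.23.

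The summed level of the 13 mitochondrial members was highest in the ovaries taken after testosterone had been stopped. It was 45135, 49305, 52641 and 47479 TPM in Post T ovaries, against 33445, 43746, 36486 and 43265 TPM in Control for Post T ovaries, and these groups did not overlap. In On T ovaries it was 34722, 50169, 35906 and 32277 TPM, against 38844, 46161, 36405 and 38877 TPM in Control for On T ovaries. These overlapped, and On T replicate 2 lay above all of its controls while the other On T libraries lay below all of them. The 68 nuclear members summed to 17399 ± 858 TPM in On T ovaries and 18443 ± 866 TPM in Control for On T ovaries (SD, n = 4 each). They summed to 17237 ± 1081 TPM in Post T ovaries and 18346 ± 2721 TPM in Control for Post T ovaries, so the mean difference was smaller than the spread of those controls. Control for Post T replicate 1 had 22392 TPM, against 16695 to 17496 TPM in the other controls and 16232 to 18535 TPM in Post T ovaries. The medians were 17090 TPM in Post T and 17148 TPM in Control for Post T ovaries.

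Set against each other in each library, mitochondrial members made up 71.8, 75.0, 76.4 and 71.9% of the summed respiratory chain TPM in Post T ovaries, against 59.9, 72.4, 68.5 and 71.2% in Control for Post T ovaries. The groups overlapped, since Post T replicates 1 and 4 lay below the highest control, replicate 2. The share was 65.8, 75.0, 66.4 and 66.0% in On T ovaries, against 66.4, 72.3, 66.6 and 68.2% in Control for On T ovaries. The mean share was 5.80 percentage points higher in Post T ovaries than in their controls, and 3.098 points higher once Control for Post T replicate 1 was left out. For On T ovaries the mean difference was -0.07 points, and -2.32 points without On T replicate 2. With every member given equal weight, the mean of log2(TPM + 1) over mitochondrial members exceeded that over nuclear members by 4.13 ± 0.18 in Post T ovaries and 3.75 ± 0.36 in Control for Post T ovaries. It did so by 3.77 ± 0.33 in On T ovaries and 3.75 ± 0.20 in Control for On T ovaries (SD, n = 4 each). No p is given for these sums, which are scores over chosen genes.

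**Figure D2:**
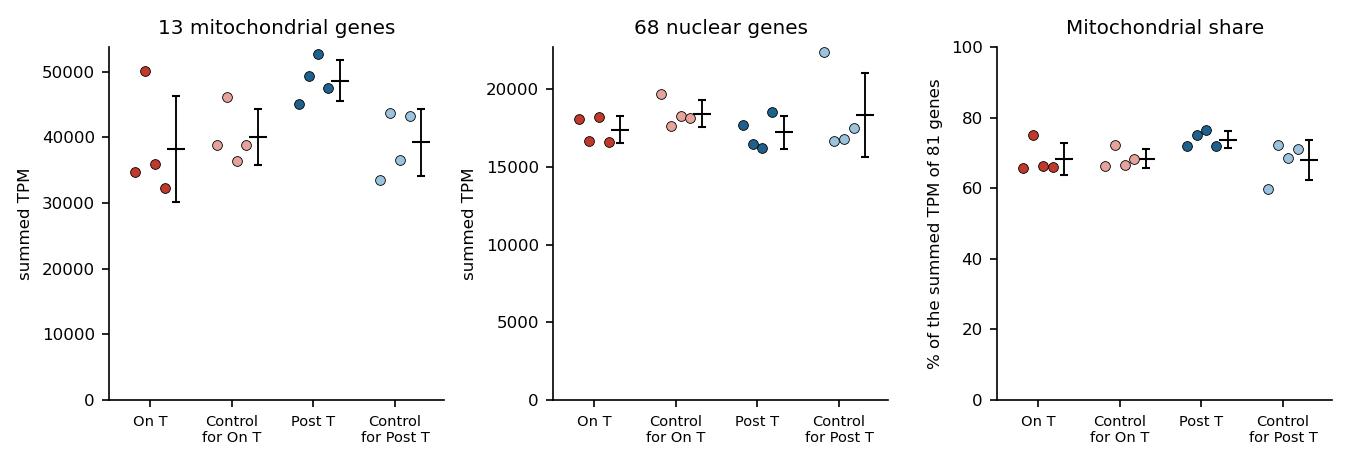
Summed TPM of the 13 mitochondrial members (left), of the 68 nuclear members (middle) and the mitochondrial share of both in percent (right), with 1 point per library and the mean ± SD of 4 libraries beside each group. The 4 Post T libraries lie between 45135 and 52641 TPM in the left panel, above the 33445 to 43746 TPM of their controls, while the middle panel shows no such gap.

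Of the 13 mitochondrial members, 2 rose in Post T ovaries at an adjusted p of 0.05 or lower (edgeR, quasi-likelihood F-test, adjusted over all genes): mt-Co1 of complex IV and mt-Nd5, a proton-pumping subunit of complex I. The fitted change was positive for all 13, from 0.18 to 0.44 on the log2 scale, with a median of 0.39 where the median of all 18833 genes was -0.01. The 2 calls make 15.4% of the 13, and 12.3% of all genes tested were called in this comparison (7.49% as higher), so the number of calls alone does not set these genes apart. At an unadjusted p of 0.05 there were 9 of 13, all higher, or 69.2%, where 12.6% of all genes were higher at that level. Without On T replicate 2, a library of neither group but part of the shared fit, 8 of 13 were called higher in Post T ovaries, where 8.11% of all genes were: mt-Nd1, mt-Nd2, mt-Co1, mt-Atp8, mt-Nd4, mt-Nd5, mt-Nd6 and mt-Cytb. In 8 of 13 every Post T library lay above every control, which 9.62% of all genes did. The 13 genes share transcripts and libraries and are not 13 separate measurements.

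The gene mt-Co1 had 9514, 10229.7, 12135 and 9946 CPM, counts scaled to library size with TMM factors, in Post T ovaries, against 7304, 7837, 7432 and 8199.5 CPM in Control for Post T ovaries. All 4 Post T libraries were above all 4 controls. The log2 fold change was 0.44 (SE 0.11, edgeR adjusted p = 0.0119), or 1.36-fold. For mt-Nd5 the Post T ovaries had 1834, 2003, 1887 and 1798 CPM, against 1164, 1456, 1349 and 1695 CPM in Control for Post T ovaries, again with no overlap (log2 fold change 0.41, SE 0.12, edgeR adjusted p = 0.0272). Across 26 alternative fits, mt-Co1 kept its call in 25 and mt-Nd5 in 20. Both were lost by limma on log2(TPM + 1), at adjusted p of 0.0619 and 0.123. The call of mt-Nd5 was also lost with the 8 libraries alone (0.0622), and when Post T replicate 2 (0.0640), Post T replicate 3 (0.0554), Control for Post T replicate 1 (0.0578) or Control for Post T replicate 3 (0.0587) was left out.

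The other complex I members of the mitochondrial genome had the same sign without passing the test. Changes in Post T ovaries were 0.41 for mt-Nd2 (edgeR adjusted p = 0.0946), 0.41 for mt-Nd6 (0.0916), 0.40 for mt-Nd1 (0.0737), 0.40 for mt-Nd4 (0.0636), 0.29 for mt-Nd4l (0.153) and 0.18 for mt-Nd3 (0.584). In mt-Nd4, the gap was small but complete, with 2217, 2498, 3101 and 2460.0 CPM in Post T ovaries, against 1639, 2060.2, 1900.2 and 2178 CPM in Control for Post T ovaries. The complex III subunit mt-Cytb changed by 0.32 (adjusted p = 0.141), with 3101 to 4156 CPM in Post T ovaries and 2460.3 to 3079 CPM in their controls, which did not overlap. For mt-Atp8 and mt-Atp6, which form part of the ATP synthase stalk and proton channel, the changes were 0.39 (0.106) and 0.27 (0.359). For mt-Co2 and mt-Co3, the other core subunits of complex IV, they were 0.33 (0.373) and 0.28 (0.430). These 4 differ in how far their counts can be trusted, as described below for nuclear copies.

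None of the 13 mitochondrial members passed the test in On T ovaries (edgeR; 0 by DESeq2 and 0 by limma too), where 9.27% of all genes did. At an unadjusted p of 0.05 there were 2, both lower, or 15.4%, where 11.4% of all genes were lower at that level. The fitted changes ran from -0.37 to 0.22 with a median of -0.07. The lowest was mt-Nd4l, a small membrane subunit of complex I, with 74.5, 96.3, 67.9 and 66.3 CPM in On T ovaries, against 96.4, 111, 85.4 and 101 CPM in Control for On T ovaries. On T replicate 2 lay among the controls, and the other 3 On T libraries were below all of them (log2 fold change -0.37, SE 0.12, edgeR adjusted p = 0.0745). The gene mt-Nd2 was next, with 952, 1429, 1082 and 945 CPM in On T ovaries, against 1453, 1649, 1136 and 1357 CPM in Control for On T ovaries (-0.34, adjusted p = 0.191). The change in mt-Co1 was -0.07 (0.759) and in mt-Nd5 -0.06 (0.807). Without On T replicate 2, 3 mitochondrial members were called lower in On T ovaries, where 4.44% of all genes were: mt-Nd2, mt-Nd4 and mt-Nd4l.

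**Figure D3:**
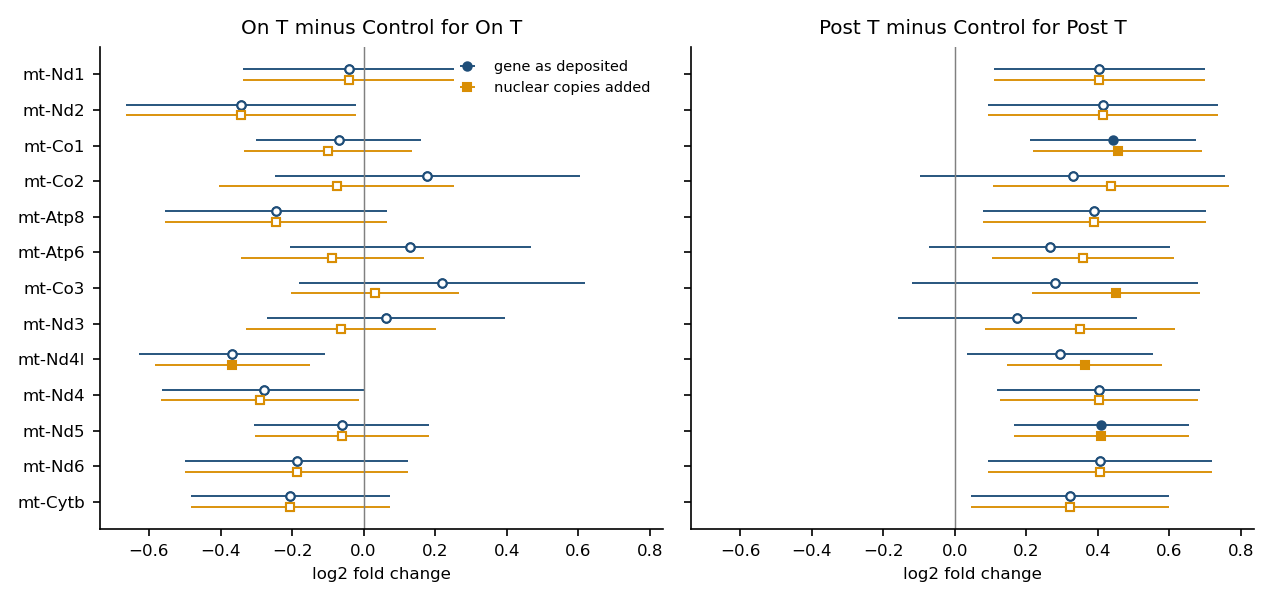
Log2 fold change and 95% confidence interval of each mitochondrial member in On T ovaries against their controls (left) and in Post T ovaries against theirs (right). Circles are the counts as deposited, squares the counts after those of nuclear copies were added, and filled symbols passed an adjusted p of 0.05; in the right panel all 26 points lie above 0, and in the left panel most lie below it.

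Mouse nuclear DNA holds old copies of mitochondrial DNA, and some of them match so closely that reads cannot be assigned. On chromosome 1 a run of pseudogenes repeats part of mt-Co1, then mt-Co2, mt-Atp6, mt-Co3, mt-Nd3, mt-Nd4l and part of mt-Nd4, in the order of the mitochondrial genome. Of all stretches of 100 bases in mt-Co2, 99.5% occur unchanged in another gene, and the share was 99.5% for mt-Atp6, 99.9% for mt-Co3, 98.5% for mt-Nd4l, 97.6% for mt-Nd3, 60.8% for mt-Nd4, 30.8% for mt-Co1 and 3.19% for mt-Nd2. It was 0 for mt-Nd1, mt-Atp8, mt-Nd5, mt-Nd6 and mt-Cytb. Only annotated transcripts were searched, so a copy outside annotated genes would not have been found. That holds for any copy of mt-Atp8 between Gm28661 and Gm10925, the copies of its neighbours mt-Co2 and mt-Atp6 in this run. The first 60 bases of mt-Co2 and of its copy Gm28661 are shown because they are the same throughout, with no capitals since no base differs (GENCODE M21, GRCm38).
mt-Co2 (chrM:7013-7072, plus strand): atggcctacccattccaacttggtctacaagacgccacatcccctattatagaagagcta
Gm28661 (chr1:24615506-24615565, minus strand): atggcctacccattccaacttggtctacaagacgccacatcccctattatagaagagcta
The identical run of this pair goes on for 681 bases, the whole length of the copy.

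The authors' counts divided such pairs unevenly. Of the summed counts of mt-Co2 and Gm28661, between 11.8 and 18.9% went to mt-Co2 in the 16 libraries. For mt-Co3 and Gm28437 it was 23.2 to 39.2%, for mt-Atp6 and Gm10925 35.0 to 50.1%, for mt-Nd3 and Gm28438 39.3 to 57.7%, and for mt-Nd4l and Gm10222 47.0 to 60.1%. For mt-Nd4, whose copy is shorter, 91.6 to 96.1% stayed with the mitochondrial gene. Which genome the RNA of these copies came from cannot be told apart where the sequence is the same. The TPM of mt-Co2, mt-Co3, mt-Atp6, mt-Nd3 and mt-Nd4l printed above are therefore lower than they would be with the copies' reads, and the order of levels among mitochondrial members depends on this split.

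**Figure D4:**
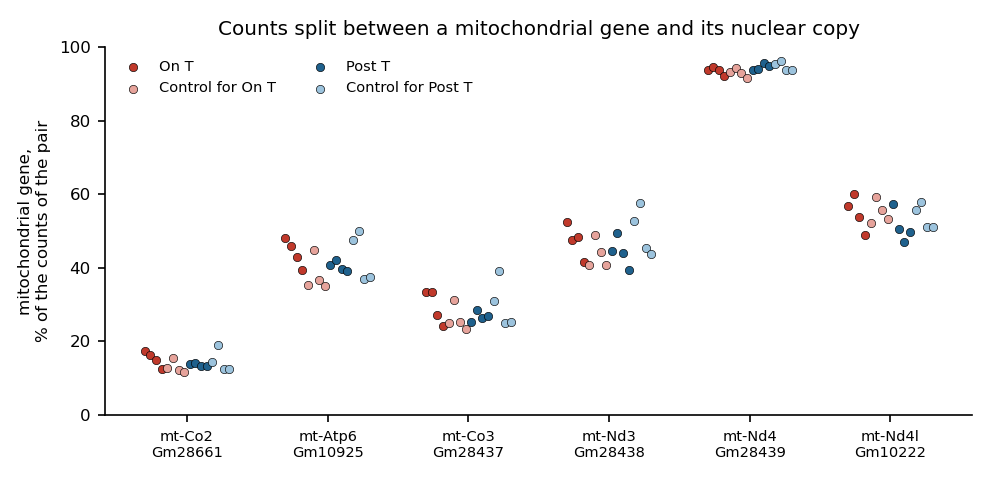
Share of the summed expected counts of a mitochondrial gene and its nuclear copy that was assigned to the mitochondrial gene, in percent, with 1 point per library and colours for the 4 groups. For mt-Co2 all 16 libraries lie between 11.8 and 18.9%, and for mt-Nd4 between 91.6 and 96.1%.

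Several of the copies rose as well. In Post T ovaries Gm28437 averaged 3384 ± 513 CPM, against 2363 ± 249 CPM in Control for Post T ovaries (log2 fold change 0.52, SE 0.11, edgeR adjusted p = 0.0046). Gm10925 (0.42, adjusted p = 0.0440), Gm28438 (0.50, 0.0293), Gm10222 (0.44, 0.0253) and Gm13340, a further copy of mt-Co1 on chromosome 2 (0.60, 0.0216), passed too. Gm28661 was at 0.45 (0.0759). When the counts of copies were added to their mitochondrial gene, an alternative chosen after the data were seen, 4 of 13 rose in Post T ovaries: mt-Co1 (0.46, adjusted p = 0.0113), mt-Co3 (0.45, 0.0117), mt-Nd4l (0.36, 0.0263) and mt-Nd5 (0.41, 0.0268). In that fit 7.47% of all genes rose in Post T ovaries. The changes of the 13 ran from 0.32 to 0.46, all 13 had an unadjusted p under 0.05, and 11 of 13 showed no overlap between groups. With counts as deposited, 12.6% of all genes were higher at that unadjusted level and 9.62% were higher without overlap. The same sum gave 1 fall in On T ovaries, in mt-Nd4l (-0.37, adjusted p = 0.0321), where 5.05% of all genes fell. The sign of 12 of 13 was negative there, where it was negative for 9 of 13 as deposited.

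Most members with a near-complete copy also varied together. Over 16 libraries mt-Co2, mt-Atp6, mt-Co3 and mt-Nd3 had pairwise Pearson r of 0.896 to 0.979. The exception was mt-Nd4l, whose copy is also near-complete. Its r with these 4, in that order, was 0.331, 0.348, 0.271 and 0.214, and it is in neither set compared next. Between these 4 and the 8 members without an annotated copy covering 90% or more, r lay between 0.207 and 0.755 (median 0.613). After copies were added it lay between 0.457 and 0.971 (median 0.851). Within the 8 the median was 0.872. These values describe genes measured in the same libraries.

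The difference between the effect in Post T ovaries and the effect in On T ovaries was itself tested. It was positive for all 13 mitochondrial members, from 0.06 to 0.76, with a median of 0.51. For 1 of them it passed the edgeR test, mt-Nd4l (0.66, SE 0.17, adjusted p = 0.0472), or 7.69% of the 13, where 3.25% of all genes did (2.93% as higher). At an unadjusted p of 0.05 there were 9, all higher, or 69.2%, where 9.23% of all genes were higher at that level. The largest was mt-Nd2 at 0.76 (adjusted p = 0.0698), and mt-Nd4 (0.68, 0.0651) and mt-Co1 (0.51, 0.0917) were near the threshold. The call for mt-Nd4l held in 10 of 25 alternative fits. Without On T replicate 2 there were 8 calls among the 13, where 3.85% of all genes were called. Of the 68 nuclear members none passed for this difference (edgeR; 0 by DESeq2 and by limma), and the median was 0.03. An unadjusted p under 0.05 was found for 2 of them, both higher, or 2.94%, where 9.23% of all genes were higher at that level. Without Control for Post T replicate 1, 2 passed, Ndufa1 (0.55, adjusted p = 0.0189) and Ndufb1-ps (0.57, 0.0288), where 3.21% of all genes did.

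Among the 68 nuclear members 1 rose in On T ovaries and none fell by the edgeR test. That is 1.47% of them, against 9.27% of all genes tested (4.24% as higher and 5.03% as lower). That member was also the only one whose On T libraries all lay above the controls, as 7.22% of all genes did. At an unadjusted p of 0.05 there were 7, of which 6 were lower, or 8.82% of the 68. Of all genes, 11.4% were lower and 10.9% higher at that level. Without Control for Post T replicate 1, 6 of 68 were called, where 10.8% of all genes were: Cox6b2 was higher, and Cox5a (-0.38, adjusted p = 0.0106), Cox7a1 (-0.74, 0.0222), Cox7c (-0.26, 0.0298), Ndufb1-ps (-0.41, 0.00806) and Uqcrfs1 (-0.29, 0.0374) were lower. The fitted change was negative for 55 of 68, with a median of -0.08 where that of all genes was -0.01. In 10 members every On T library lay below every control, or 14.7% of the 68, where 7.92% of all genes did so. Of those 10, 5 were listed under complex IV, which holds 15 of the 68: Cox5a, Cox6b1, Cox7c, Cox8a and the pseudogene Cox6c2. Another 2 were listed under complex III and 3 under complex I, among them Ndufb1-ps, a noncoding RNA in GENCODE. The changes lay between -0.71, for Cox6c2, and -0.21.

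The gene that rose was Cox6b2, the form of a peripheral complex IV subunit known from testis and sperm. It had 6.87, 10.5, 6.19 and 7.39 CPM in On T ovaries, against 5.08, 4.72, 5.78 and 4.16 CPM in Control for On T ovaries. Each On T library was above each control, and On T replicate 2 was the highest (log2 fold change 0.65, SE 0.18, edgeR adjusted p = 0.0314, or 1.57-fold). In Post T ovaries it had 6.15, 7.04, 7.50 and 5.39 CPM, against 6.66, 5.31, 5.95 and 4.45 CPM in Control for Post T ovaries, and these overlapped (0.22, adjusted p = 0.531). The call held in 19 of 26 alternative fits. It was lost without On T replicate 2 (0.47, adjusted p = 0.0958), On T replicate 4 (0.0568) or Control for On T replicate 1 (0.0545), 2 (0.0877) or 4 (0.109), with the 8 libraries alone (0.0756), and without On T replicate 2 and Control for Post T replicate 1 together (0.0721). Its common counterpart Cox6b1 had 97.9 to 105 CPM in On T ovaries and 108 to 139 CPM in Control for On T ovaries, a change of -0.23 that did not pass (adjusted p = 0.318).

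The promoters of this pair are shown because the genes encode the same subunit and had opposite signs in On T ovaries. Each line gives 250 bases before and 50 bases after the start of the gene (RefSeq, GRCm38.p6), and capitals mark a match to a motif that was searched.
Cox6b2 (chr7:4753045-4753344, minus strand): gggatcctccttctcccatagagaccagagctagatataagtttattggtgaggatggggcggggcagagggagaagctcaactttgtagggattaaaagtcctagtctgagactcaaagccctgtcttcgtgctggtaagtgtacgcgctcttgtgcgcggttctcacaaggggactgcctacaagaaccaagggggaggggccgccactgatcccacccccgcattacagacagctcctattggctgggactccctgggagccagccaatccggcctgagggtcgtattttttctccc
Cox6b1 (chr7:30626065-30626364, minus strand): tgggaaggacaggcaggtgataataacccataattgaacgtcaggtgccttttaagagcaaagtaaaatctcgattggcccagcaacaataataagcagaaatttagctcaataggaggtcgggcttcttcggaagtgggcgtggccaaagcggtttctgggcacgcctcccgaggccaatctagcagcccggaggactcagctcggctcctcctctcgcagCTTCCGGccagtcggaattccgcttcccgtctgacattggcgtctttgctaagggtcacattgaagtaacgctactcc
The capitals in Cox6b1 match the ETS motif on the other strand, and the Cox6b2 window held no match to any motif searched.

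Promoters were found for 51 of the 68 nuclear members, 53 windows in all, and were searched on both strands for motifs of factors known to act on respiratory genes. The motif of NRF1, which drives many nuclear genes for mitochondrial proteins, was in 22.6% of the member windows, in 4.60% of all 32851 windows in the table and in 8.35% of those of the other genes tested. CCGGAAG, the motif of ETS factors such as GABP, was in 20.8%, 8.86% and 14.9% of these. AAGATGGC, the motif of YY1, was in 13.2%, 2.75% and 3.72%. TCAAGGTCA, the motif of the oestrogen-related receptors, was in 1.89%, 0.423% and 0.273%, and TATAAA, the TATA box, in 9.43%, 13.6% and 7.99%. Sdhd, the small membrane anchor of complex II, held NRF1, ETS and ERR matches, and Sdha held NRF1 matches only. A match is a description of letters, and these counts were not tested.

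No nuclear member was called in Post T ovaries. None of the 68 passed the edgeR test, where 12.3% of all genes did (4.81% as lower), while DESeq2 called 2 and limma 1. At an unadjusted p of 0.05 there were 3, all lower, or 4.41% of the 68, where 10.3% of all genes were lower at that level. The median change was -0.06, with 49 of 68 negative. The smallest p belonged to Uqcrfs1, the Rieske iron-sulfur protein of complex III, with 119.9, 107, 105 and 114 CPM in Post T ovaries, against 191, 123, 124 and 141 CPM in Control for Post T ovaries. It was the only nuclear member whose groups did not overlap, where 6.92% of all genes were lower in that way, and its first control library was far above the rest (-0.38, SE 0.12, edgeR adjusted p = 0.0602). Uqcrfs1 was called lower by DESeq2 (0.0374) and limma (0.0185), with the replicate number as a block (0.0281), with age as a term (0.0366), and without Control for Post T replicate 2 (0.0348), Control for Post T replicate 3 (0.0470) or On T replicate 2 (0.0370). Ndufc2, a small subunit of complex I, had 53.3, 47.0, 51.4 and 51.7 CPM in Post T ovaries, against 136, 48.2, 54.8 and 75.5 CPM in Control for Post T ovaries (-0.63, adjusted p = 0.0807). Without Control for Post T replicate 1 the median of the nuclear members in Post T ovaries was 0.17, of the opposite sign. Ndufa1 of complex I was called higher in that fit, as were 7.08% of all genes.

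The intervals give the size of change that these data leave room for. In On T ovaries the 95% confidence interval of the fold change lay within 2-fold in either direction for 64 of 68 nuclear members, or 94.1%, where 76.7% of all genes did. The exceptions were Cox6b2, Cox6c2, Cox7a1 and Uqcrh-ps1. In Post T ovaries it did so for 66 of 68, with Ndufc2 and Ndufa4l2 outside, where 76.3% of all genes did. Within 1.5-fold the counts were 55 of 68 for On T ovaries and 57 of 68 for Post T ovaries. The typical half-width was 0.30 log2 units in both.

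Of the nuclear complex I members, 40 in all, none was called in either comparison, and the medians were -0.07 in On T and -0.03 in Post T ovaries. The lowest in On T ovaries was Ndufb1-ps, listed by GENCODE as a long noncoding RNA, with 30.4, 25.6, 25.8 and 25.9 CPM in On T ovaries, against 42.4, 35.6, 32.3 and 34.4 CPM in Control for On T ovaries, without overlap (-0.42, SE 0.14, edgeR adjusted p = 0.0769). It passed with the replicate number as a block, with age as a term, with the 8 libraries alone, by limma, and without Control for Post T replicate 1 (adjusted p 0.00806 to 0.0470). Ndufs1, the largest subunit, which holds iron-sulfur clusters, was at -0.18 (0.579) in On T and -0.14 (0.710) in Post T ovaries. Ndufa4, whose product is now placed in complex IV, was at -0.19 (0.511) in On T and -0.16 (0.622) in Post T ovaries, and its relative Ndufa4l2, induced by low oxygen in other tissues, at -0.31 (0.482) and -0.58 (0.131).

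Complex II has no mitochondrial subunit and also serves the citric acid cycle, and none of its 4 genes was called in either comparison. Sdha, the flavoprotein, averaged 366 ± 48.7 CPM in On T ovaries and 396 ± 24.0 CPM in Control for On T ovaries, a change of -0.12 (edgeR adjusted p = 0.589). In Post T ovaries it averaged 395 ± 42.9 CPM, against 375 ± 40.9 CPM in Control for Post T ovaries (0.08, adjusted p = 0.758; SD, n = 4 each). Sdhb, the iron-sulfur protein, changed by -0.29 (0.439) in On T and -0.10 (0.849) in Post T ovaries. The membrane anchors Sdhc and Sdhd changed by -0.04 and -0.03 in On T and by -0.07 and -0.02 in Post T ovaries, with intervals between -0.24 and 0.17.

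Several complex IV subunits come in forms made by different tissues, and in ovary the common form was far the higher in each case. By mean TPM, Cox4i1 was at 1346 and Cox4i2, the form of lung and low oxygen, at 13.97, and Cox6a1 was at 930 while the muscle form Cox6a2 stood below the threshold. Cox4i1 changed by -0.07 (edgeR adjusted p = 0.808) in On T and by -0.08 (0.793) in Post T ovaries. Cox4i2 had 4.03 to 6.22 CPM in On T ovaries and 4.78 to 6.87 CPM in Control for On T ovaries (-0.39, adjusted p = 0.369), and was at -0.29 (0.542) in Post T ovaries. Cox7a1, the heart and muscle form, had 1.49, 1.67, 1.36 and 1.42 CPM in On T ovaries, against 3.11, 2.82, 1.66 and 2.42 CPM in Control for On T ovaries. The highest On T library only just passed the lowest control (-0.76, SE 0.30, adjusted p = 0.138), and without Control for Post T replicate 1 in the fit Cox7a1 was called lower at -0.74 (adjusted p = 0.0222). The ubiquitous Cox7a2 was at -0.02 (0.934) in On T and -0.07 (0.790) in Post T ovaries. Cox7a2l, which helps complexes III and IV join into supercomplexes, had 222 to 268 CPM in On T ovaries and 200.3 to 237 CPM in Control for On T ovaries (0.19, adjusted p = 0.231) and was at 0.01 (0.986) in Post T ovaries. Cox6c, Cox7b and Cox8a were at -0.04, -0.02 and -0.21 in On T and at -0.08, -0.03 and -0.08 in Post T ovaries, and none passed.

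**Figure D5:**
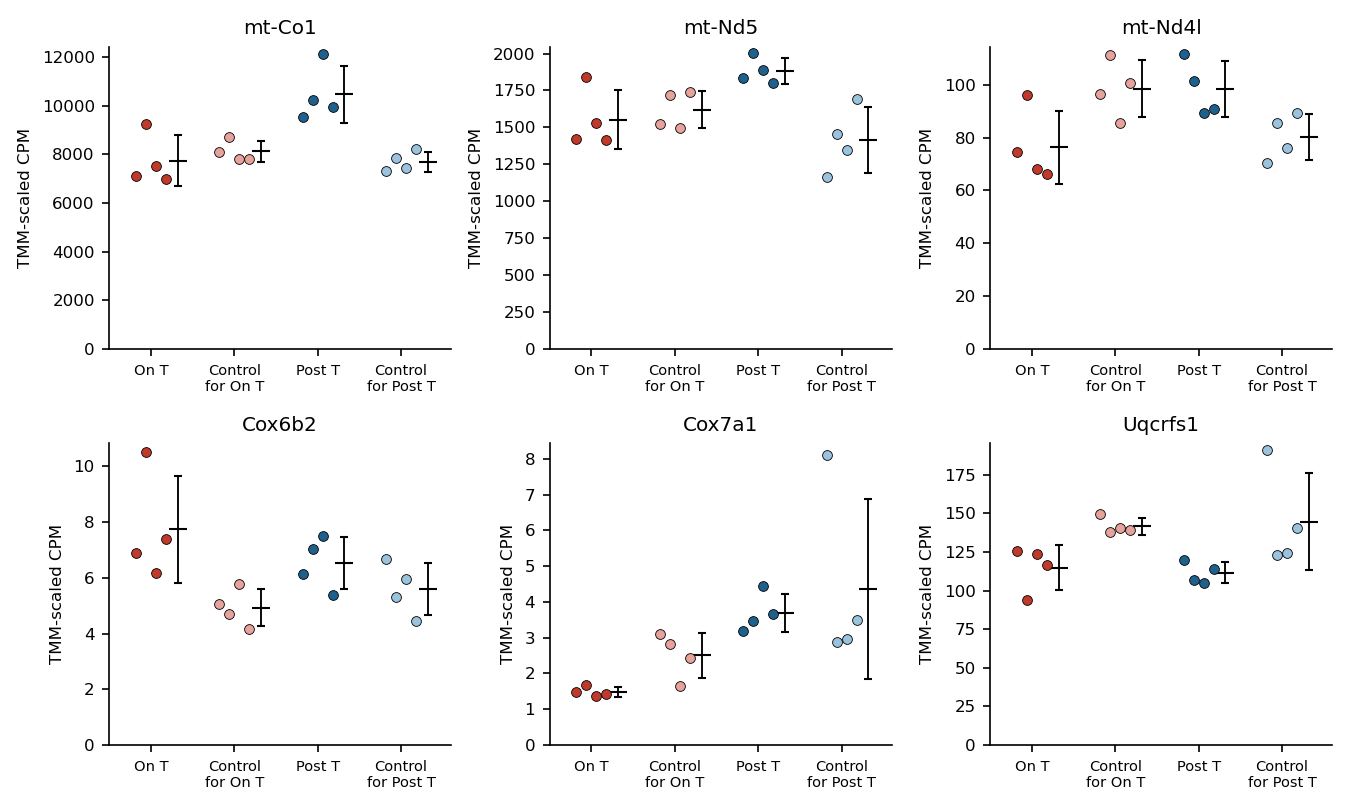
TMM-scaled CPM of 6 members in each library, with 1 point per library and the mean ± SD of 4 libraries beside each group. The upper row shows mitochondrial genes: mt-Co1 lies at 9514 to 12135 in Post T ovaries, above the 7304 to 8199.5 of their controls. In the lower row, nuclear genes, Control for Post T replicate 1 is the high point of Cox7a1 (8.11) and of Uqcrfs1 (191).

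Some nuclear members are listed by GENCODE as pseudogenes, and their values may hold reads of the parent gene. Ndufb4c, a processed pseudogene on chromosome 15, shares all of its stretches of 100 bases with other genes, and averaged 403 TPM where its parent Ndufb4 averaged 39.3 TPM. The gap was smaller in CPM, which is not scaled for gene length: 34.7 to 59.2 for Ndufb4c and 16.7 to 26.3 for Ndufb4. Their longest transcripts have 390 and 971 bases. Cox6c2, a processed pseudogene of Cox6c with 34.8% of stretches shared, had 0.724, 0.524, 0.781 and 0.895 CPM in On T ovaries, against 1.23, 1.02, 1.51 and 1.03 CPM in Control for On T ovaries, with no overlap (-0.71, SE 0.28, edgeR adjusted p = 0.133). Ndufs6b and Uqcrh-ps1 are also processed pseudogenes. Values of these genes are uncertain.

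Between the groups of controls, the older Control for Post T ovaries did not differ detectably from the younger Control for On T ovaries in any member. None of the 13 and none of the 68 passed the edgeR test (0.0% of all genes did; at an unadjusted p of 0.05 there were 1002 higher and 890 lower genes, and DESeq2 called 177 and limma 0). DESeq2 and limma called 0 members, and 2 had an unadjusted p under 0.05. Those were mt-Nd4l at -0.29 (adjusted p = 0.426) and Cox7a1 at 0.79 (0.347). The medians were -0.06 for mitochondrial and -0.01 for nuclear members, and no member separated the groups without overlap, where 3.28% of all genes were higher and 2.61% lower in that way. Age and cohort cannot be told apart in this comparison.

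Other genes of the pathway, from lists chosen with earlier results of these data known, were mostly not called. Neither comparison called any of 18 nuclear subunits of ATP synthase, 7 electron carriers, 15 assembly factors of complex I, 10 of complexes II and III, 20 of complex IV or 16 enzymes of the citric acid cycle (edgeR and DESeq2; limma called 1 ATP synthase subunit and 1 complex I assembly factor in Post T ovaries). At an unadjusted p of 0.05 these lists held 1 gene in On T ovaries, among the electron carriers. For Post T ovaries they held 2 ATP synthase subunits, 4 complex I assembly factors and 1 citric acid cycle enzyme. Of all genes, 10.9% were higher and 11.4% lower at that level in On T ovaries, and 12.6% and 10.3% in Post T ovaries. The medians of these lists lay between -0.13 and -0.06 in On T ovaries and between -0.09 and 0.00 in Post T ovaries.

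Among 30 genes of mitochondrial DNA upkeep and expression, 2 fell in Post T ovaries and none rose, which is 6.67% of the list and near the 4.81% of all genes that were called lower. Twnk, the helicase that unwinds mitochondrial DNA for copying, averaged 46.4 ± 3.72 CPM in Post T ovaries, against 58.9 ± 4.13 CPM in Control for Post T ovaries (SD, n = 4 each; -0.35, SE 0.08, edgeR adjusted p = 0.00565). Tfam, which packs mitochondrial DNA and starts its transcription, averaged 49.2 ± 1.34 CPM in Post T ovaries, against 59.0 ± 7.13 CPM in Control for Post T ovaries (-0.26, SE 0.08, adjusted p = 0.0433). For On T ovaries 0 of the 30 passed (edgeR, DESeq2 and limma; 0 at an unadjusted p of 0.05).

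Of 8 regulators of mitochondrial biogenesis, 1 rose in On T ovaries, Ppargc1a, a coactivator of nuclear genes for mitochondrial proteins, with 3.13 ± 0.901 CPM in On T ovaries and 1.69 ± 0.274 CPM in Control for On T ovaries (0.89, SE 0.25, edgeR adjusted p = 0.0359). That is 12.5% of the list, where 4.24% of all genes rose. DESeq2 called 1 of the 8 there and limma 0. None of the 8 was called in Post T ovaries. In On T ovaries edgeR called no gene of glycolysis, the mitochondrial ribosome or the cytosolic ribosome, with 3, 1 and 6 at an unadjusted p of 0.05 and 1, 0 and 1 called by DESeq2. Of 17 glycolysis genes, Pfkp, a phosphofructokinase, fell in Post T ovaries (-0.40, adjusted p = 0.0332), or 5.88% of the list, where 4.81% of all genes fell. Of 78 mitochondrial ribosome proteins, Mrpl50 fell there (-0.40, adjusted p = 0.0197), and of 87 cytosolic ribosome genes, Rpl22l1 did (-0.50, adjusted p = 0.0234). These are 1.28 and 1.15% of the ribosome lists, below the share of all genes. In Post T ovaries DESeq2 called 1 and 2 genes of these lists, and limma 4 and 7. The cytosolic ribosome genes had a median of 0.12 in On T and of -0.15 in Post T ovaries.

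Markers of several cell types differed from controls in both Post T and On T ovaries. The markers were chosen with earlier results of these data known, so the numbers of calls among them are no separate support. Of all genes, 7.49% rose and 4.81% fell in Post T ovaries, and 4.24% rose and 5.03% fell in On T ovaries. Of 10 general macrophage markers, 7 rose in Post T ovaries, with a summed level of 4871 to 6928 TPM in Post T ovaries and 672 to 1505 TPM in Control for Post T ovaries. Of 10 markers of multinucleated and lipid-laden macrophages, 10 rose there, with sums of 2157 to 2746 TPM in Post T ovaries and 310.1 to 478 TPM in their controls. Of 12 luteal markers, 8 fell, with sums of 4230.0 to 7778 TPM in Post T ovaries and 7941 to 12841 TPM in Control for Post T ovaries. In On T ovaries 8 of 12 luteal markers fell too (4019 to 6935 TPM in On T and 9282 to 10863 TPM in Control for On T ovaries), 4 of 10 general macrophage markers rose (753 to 1436 and 431 to 615 TPM) and so did 7 of 10 of the multinucleated kind (479 to 659 and 218 to 333 TPM). The defining luteal gene Akr1c18, which breaks down progesterone, was at 0.643 ± 0.268 CPM in On T ovaries, against 141 ± 35.3 CPM in Control for On T ovaries. It was at 0.207 ± 0.0679 CPM in Post T ovaries, against 139 ± 20.98 CPM in Control for Post T ovaries. Of 5 theca markers 1 rose in each comparison, of 11 smooth muscle and pericyte markers 2 rose in On T ovaries, and of 12 immediate early genes, which respond to handling, 6 fell in On T ovaries while 1 rose and 1 fell in Post T ovaries. None was called by edgeR among 9 granulosa, 8 oocyte, 5 endothelial, 3 adipocyte, 7 surface epithelium and 4 ciliated cell markers. The part of these cell types in the respiratory chain values was not tested.

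Muscle markers, from a list also chosen with earlier results of these data known, are given beside the muscle forms of complex IV subunits. Of 7 striated muscle genes tested, 4 rose and 1 fell in On T ovaries, and the change was largest for the heart myosin Myh6, at 65.5 ± 28.4 CPM in On T ovaries and 1.03 ± 0.246 CPM in Control for On T ovaries (5.97, SE 0.45, edgeR adjusted p = 4.11e-07). In Post T ovaries 2 of the 7 rose and 1 fell, with Myh6 at 2.33 ± 1.36 CPM in Post T ovaries and 0.677 ± 0.327 CPM in Control for Post T ovaries (1.81, SE 0.47, adjusted p = 0.0161). The gene that fell was Myl1 in both comparisons. It was at 0.388 ± 0.169 CPM in On T ovaries and 1.41 ± 0.675 CPM in Control for On T ovaries (-1.80, SE 0.36, edgeR adjusted p = 0.00436). In Post T ovaries its change was -1.13 (SE 0.34, adjusted p = 0.0365). In On T ovaries the muscle form Cox7a1, as given above, had the sign of Myl1 and the opposite sign to Myh6. Cox6a2 held 1 to 2 counts in On T libraries and 1 to 11 counts in Control for On T libraries. A link between these genes was not tested.

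The genes outside the mitochondrial genome with the pattern most like the mean of the mitochondrial members were ranked over 16 libraries among 10820 genes of at least 10 CPM. The first was the nuclear copy Gm28661 (Pearson r 0.89). It was followed by Tnfrsf1a, a receptor of tumour necrosis factor (0.88), Ehbp1l1 (0.87), Zdhhc18, a palmitoyltransferase (0.86), and Ilrun (0.86). Of these, Tnfrsf1a (0.28, edgeR adjusted p = 0.0272) and Zdhhc18 (0.41, adjusted p = 0.0259) rose in Post T ovaries, where 7.49% of all genes did. None was called in On T ovaries. The genes were picked from the same libraries for their likeness to a mean that was highest in Post T ovaries. Their changes therefore follow in part from the choice and are no separate support.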

How the data were processed

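Whole-ovary poly(A) RNA from 16 mice was sequenced as paired ends, per the labels' protocols. Reads were trimmed and checked with cutadapt 2.3 and FastQC 0.11.8, aligned with STAR 2.7.8a and quantified with RSEM 1.3.3 on GRCm38, per the submitters' processing notes. The annotation release is not given in the sources used here. The authors deposited expected counts, which were whole numbers, and TPM. A deposited table of FPKM was not used.

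Expected counts were tested with edgeR 4.0.16 (R 4.3.3): TMM scaling, filterByExpr with a minimum count of 10, 1 quasi-likelihood fit of all 16 libraries, and Benjamini-Hochberg adjustment over 18833 genes with a threshold of 0.05. DESeq2 1.42.0, limma 3.58.1 on log2(TPM + 1), other filters and scalings, a replicate block and leaving out each library were alternatives. TPM compared levels between genes. Shared stretches were windows of 100 bases in GENCODE M21 transcripts. The fit was tested on simulated data. The members and gene lists were chosen with earlier results of these data known. Genes named were members, listed pathway genes past the threshold, and the 5 most like the mitochondrial mean. Depth was 26598055 to 52659637 counts. The labels call the mice separate animals, and replicates differed by more than counting noise (chi-square per gene of 15.6 or more). Results for 1 gene are not reported here.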

Additional observations from a re-analysis of the deposited data

Results flagged for a closer look

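Among 124 groups of 4 libraries examined for the named members and the sums, 17 held a library far from the other 3 by Dixon's criterion, where chance gives about 1 in 20 groups. In 12 of them that library was Control for Post T replicate 1. It had 141 CPM of Sdhd (107 to 108 in the other 3), 187 of Sdhb (94.3 to 107), 256 of Cox6c (165 to 174), 267 of Cox7a2l (216 to 224), 180.0 of Ndufa4 (96.9 to 108) and 95.9 of Cox7b (59.6 to 64.4). It also had 718 CPM of Cox4i1 (449 to 470.2), 110.1 of Cox7a2 (70.4 to 73.7), 181 of Cox8a (119 to 127), 164 of Cox6b1 (102 to 106), 344 of Cox6a1 (189 to 207) and 8.11 of Cox7a1 (2.87 to 3.49). These genes vary together, so the 12 are not separate events.

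Cox8a had 149 CPM in Control for On T replicate 1 (129 to 131 in the other 3). Cox4i2 had 6.22 CPM in On T replicate 3 (4.03 to 4.32). Post T replicate 3 had 719.9 CPM of mt-Co2 (501 to 511) and 614 CPM of mt-Nd6 (409 to 438). The mitochondrial share was 75.0% in On T replicate 2 (65.8 to 66.4% in the other 3). For mt-Nd4l the effect in Post T ovaries differed from that in On T ovaries by 0.66 on the log2 scale, by the test of the difference itself (edgeR adjusted p = 0.0472).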

How the results depend on the processing

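Most values kept their direction and their side of the threshold: of the summary values under alternatives 385 did and 57 moved, and of single genes 1529 did, 25 gained a call, 29 lost one and 2 reversed. The causes were not tested. Called mitochondrial members in On T ovaries were 1 with nuclear copies added, 1 with the replicate block and 4 without On T replicate 2 and Control for Post T replicate 1. The shares of all genes called in these fits were 9.29, 8.90 and 10.0%. Called nuclear members in On T ovaries were 2 with age as a term, by limma, with the 8 libraries alone and with the replicate block, and 3 without both libraries. For all genes the shares were, in that order, 9.72, 6.00, 7.36, 8.90 and 10.0%. In Post T ovaries, called mitochondrial members were 4 with copies added, 0 by limma and 5 without both libraries, where 12.3, 9.88 and 12.7% of all genes were called. Called nuclear members were 2 by DESeq2, 1 with age, by limma and with the replicate block, and 2 without both libraries. Shares of all genes in these fits were 8.30, 12.7, 9.88, 12.1 and 12.7%. For the difference of effects, called mitochondrial members were 4 by DESeq2, 0 with age, by limma and with median-of-ratios factors, and 9 without both libraries, where 2 nuclear members were called. Without both libraries the nuclear median was 0.17 in Post T ovaries and 0.21 for the difference. Copies, age and leaving out both libraries were chosen after the data were seen.

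With each library left out in turn, calls ran from 0 to 3 (mitochondrial) and 0 to 6 (nuclear) in On T ovaries, 1 to 8 and 0 to 2 in Post T ovaries, and 0 to 8 and 0 to 2 for the difference. The share of all genes called in the same fits ran from 5.66 to 10.8% in On T ovaries. It ran from 9.19 to 13.5% in Post T ovaries and from 2.37 to 3.85% for the difference. The nuclear median ran from -0.11 to 0.17 in Post T ovaries and from -0.050 to 0.24 for the difference, where the highest came without Control for Post T replicate 1. Ndufa4 in Post T ovaries ran from -0.24 to 0.11, reversed without that library and, at 0.11, without both.

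Same-numbered On T and control libraries correlated at -0.02 to 0.13 in their deviations from group means, and different-numbered ones at -0.20 to 0.13. For Post T and control libraries the ranges were 0.04 to 0.23 (median 0.11) and -0.24 to 0.16 (median -0.05). The main fit did not use the number, and whether it marks true pairs was not tested. Depth limits Cox7a1, Cox6c2 and Uqcrh-ps1, which had few counts.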
